A study of Bos taurus with 15 samples.

Results

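The genes described here are 28 genes that mark lymphocytes, the T cells, B cells and cytotoxic cells of adaptive immunity and natural killing. They were read in testis tissue of 15 cattle collected at the slaughterhouse, from 7 untreated controls and 8 animals given prednisolone, a synthetic glucocorticoid, at 30 mg per head daily by mouth for 35 days. The members were fixed by name: a probe belonged to a gene when the gene name, gene number, accession or description in the scanner files named it. Of the 28 genes, 27 had a probe, CD52 had none, and 23 were bright enough to be tested, out of 14885 named genes on the array and 13267 tested. Each array held total RNA of 1 animal, labelled with 1 dye. The labels give neither breed nor age, the series text speaks of cows although the tissue is testis, and the treatment text is repeated on the control samples, whose characteristics state no treatment. The comparison asked which transcripts differed between treated and untreated testis. Of marker genes for the tissue label, 8 of 8 Sertoli cell, 6 of 6 Leydig cell and 7 of 8 spermatid genes were detected. Detected means well above background on at least 7 arrays. As 13267 of the 14885 named genes met that mark, these counts do not test the label.

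T cells recognise antigen through a receptor whose CD3 chains pass the signal to the kinases LCK and ZAP70, while CD8 and CD4 bind the major histocompatibility molecules that present it. B cells signal through CD79A and CD79B, and cytotoxic T cells and natural killer cells kill with perforin and granzymes. The testis holds few lymphocytes, which lie in the interstitium outside the tubules, and glucocorticoids are known for lowering the number and activity of lymphocytes in blood and lymphoid organs. In tissue RNA, fewer lymphocytes and less RNA per lymphocyte cannot be told apart.

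A level is given as the log2 processed signal relative to the 75th percentile of the same array, and levels of different genes are not compared because each probe has its own brightness. The array of prednisolone 30 stood apart. On the other 14 arrays, 82.2% to 89.9% of probes were well above background, the scanner software's mark of detection, against 36.4% on this one. Only 2 of the 27 genes with a probe, CD2 and CD79A, were well above background on it, against 20 to 27 genes on each other array. Its dimmest detected probe lay at -3.36, and its values for CD3D, CD3G, CD28, GZMB, GZMK and IL7R lay near that level. A higher value was no sign of detection, since CD5 at -0.83 and ZAP70 at -1.03 were not well above background there. Of the 23 tested genes, its scanner value was above the range of the other animals for 13, inside for 7 and below for 3, while its column in the authors' deposited table was above for 0, inside for 21 and below for 2. File and column of this animal do not hold the same measurement, since their gene-centred values correlated at 0.0134. Group differences are therefore given with and without prednisolone 30.

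Detection of the lymphocyte genes differed by gene. CD2 and CD79A were well above background on 15 of 15 arrays. A further 17 of the tested genes were so on 14 arrays, CD6 on 13, GZMB on 12, GZMK on 11 and CD27 on 10. The coreceptor of helper T cells, CD4, was well above background on 4 arrays, CD5, an inhibitory T cell surface receptor, on 2, CD79B on 3 and FOXP3, the transcription factor of regulatory T cells, on 6. FOXP3 was so on 1 of 7 control and 5 of 8 treated arrays, CD4 on 1 and 3, CD79B on 2 and 1, and CD5 on 1 and 1. The share of all probes detected also differed between arrays, from 82.2% to 89.9% apart from prednisolone 30. Detection was therefore not compared between the groups. These 4 genes were not tested. The CD4 probe is named only through an old description, so a dim value there is no statement about helper T cells.

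No lymphocyte gene differed between prednisolone and control testis beyond the spread between animals. Of 23 tested genes, 0 passed an adjusted p of 0.05 in limma, which is also the background, since 0 of 13267 genes and thus 0% were called (smallest adjusted p 0.883). At an unadjusted p under 0.05 there was 1 of 23 lymphocyte genes, CD79A, against 322 of all tested genes, or 2.43%. Without prednisolone 30 there was also 1, CD6, against 552 genes, or 4.16%, and 0 genes were called. The deposited table gave 2, CD6 and GZMB, against 722 genes, or 5.44%, with 0 called. Without control 17 that table gave 0 of 23 at this level, against 786 of all tested genes.

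The signs were mixed. Values were higher in treated animals for 13 of the 23 genes, with a median log2 difference of 0.10, while 52.0% of all tested genes were higher with a median of 0.02. Without prednisolone 30 the count was 11 of 23 and the median -0.05, against a median of 0.01 over all tested genes. The split depends on the scaling, with 6 of 23 higher after quantile normalization and 19 of 23 after normexp background correction. For 0 of the 23 genes were all treated animals on one side of all controls, with or without prednisolone 30. Among all tested genes that held for 6, or 0.0452%, and without prednisolone 30 for 9, or 0.0678%. The 95% intervals show what 15 arrays could resolve: their half-width was 0.69 in the median gene and 0.58 without prednisolone 30, on the log2 scale.

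**Figure D1:**
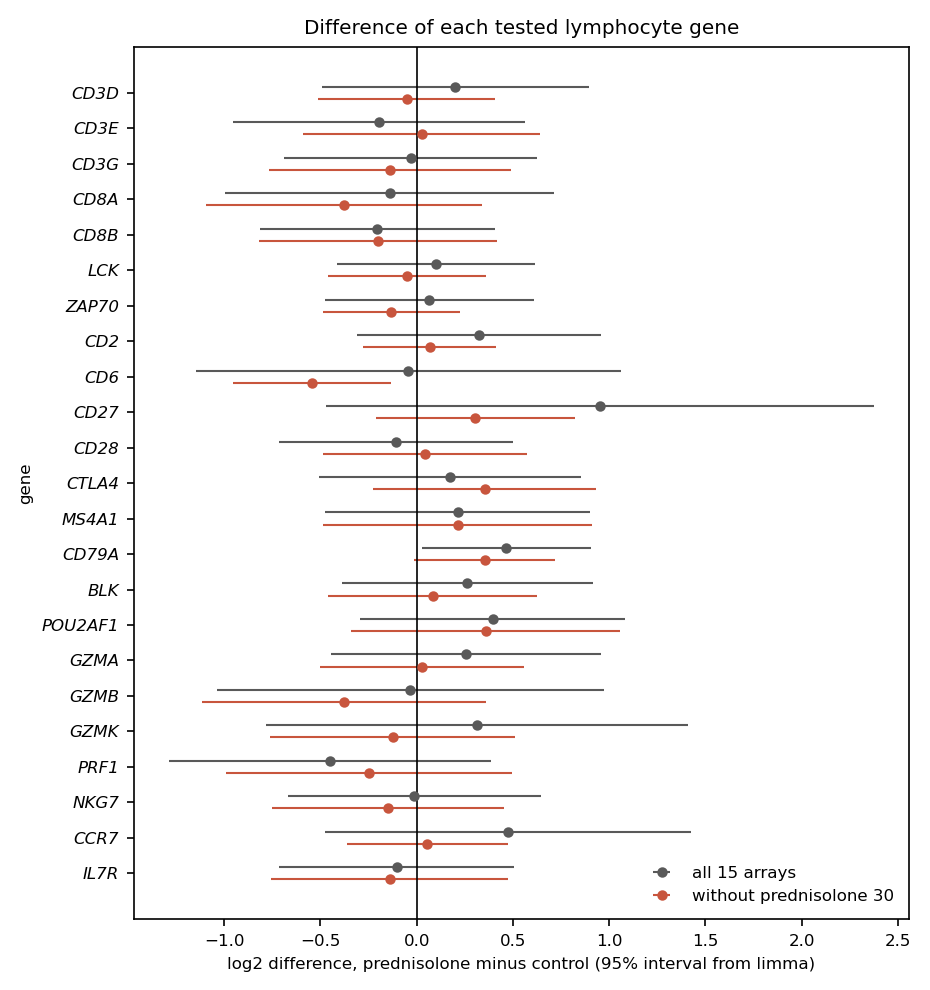
Log2 difference, prednisolone minus control, of the 23 tested lymphocyte genes, with 95% intervals from limma, over all 15 arrays (grey) and without prednisolone 30 (red). The interval excludes 0 for CD79A over all arrays and for CD6 without prednisolone 30, neither with an adjusted p under 0.05, and the widest grey intervals belong to genes for which prednisolone 30 lay far from the other animals, such as CD27 and GZMK.

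Among the chains of the T cell receptor complex and its coreceptors, 1 of 5 tested genes had a higher and 4 a lower value in treated animals, with and without prednisolone 30, and 0 passed. CD3G and CD8A turned to 0.27 and 0.18 with slide as a block, to 0.12 and 0.060 without control 17, and to 0.075 and 0.018 after normexp correction. CD3E, a signalling chain present in every T cell receptor complex, ranged in controls from -3.09 to -1.20 with a median of -2.12. In the 7 treated animals other than prednisolone 30 it ranged from -2.78 to -1.27 with a median of -1.86. The groups thus covered nearly the same span, and the fitted difference was -0.20 ± 0.36 (SE), or 0.03 ± 0.29 without prednisolone 30, whose interval ran from -0.59 to 0.64. CD8A, the alpha chain of the CD8 coreceptor of cytotoxic T cells, had the widest span of this group. It ranged from -3.58 to -1.48 in controls, with a median of -2.82, and from -4.08 to -2.13 in the same 7 treated animals, with a median of -3.03. Controls 17 and 24 were the highest and prednisolone 32 the lowest, and the difference was -0.14 ± 0.40 (SE), or -0.38 ± 0.34 without prednisolone 30.

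The beta chain CD8B lay between -2.86 and -0.996 in controls and between -3.09 and -1.58 in treated animals without prednisolone 30. Its difference was -0.20 ± 0.29 (SE) with and -0.20 ± 0.29 without that animal. For CD3G, another signalling chain, controls ranged from -4.94 to -3.22 and the 7 treated animals from -5.61 to -3.63. Prednisolone 32 was the lowest there, its nearest neighbour among the treated animals lying at -4.40, and the difference was -0.03 ± 0.31 (SE), or -0.14 ± 0.30 without prednisolone 30. CD3D was dimmer and ranged from -6.14 to -4.96 in controls and from -5.91 to -4.76 in those treated animals. Its difference was 0.20 with and -0.05 without prednisolone 30.

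The kinases LCK, which starts the signal of the T cell receptor, and ZAP70, which carries it on, differed little. LCK ranged from -6.22 to -5.09 in controls and from -6.08 to -5.08 in treated animals without prednisolone 30, with medians of -5.85 and -5.93. ZAP70 ranged from -2.98 to -1.84 and from -2.81 to -2.03. Controls 17 and 24 and prednisolone 27 were the 3 highest of the 14 animals for both genes. The differences were 0.10 ± 0.24 and 0.07 ± 0.26 (SE) over all arrays and -0.05 ± 0.19 and -0.13 ± 0.17 without prednisolone 30. With that animal kept, both signs also turned with slide as a block (-0.014 and -0.037) and with scan day as a block (-0.050 and -0.14). Leaving out control 17 beside prednisolone 30 gave 0.060 for LCK and -0.026 for ZAP70. A second probe that the gene number ties to ZAP70 did not rank the 14 animals like the first (Spearman rho -0.20) and differed by 0.37, or 0.26 without prednisolone 30.

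Of the genes of T cell adhesion and costimulation, 3 of 5 tested genes had higher values in treated animals, and 4 of 5 without prednisolone 30. CD6, a receptor that binds adhesion molecules on antigen-presenting cells, had the smallest unadjusted p of the 23 genes once prednisolone 30 was left out. Controls ranged from -6.41 to -5.40 with a median of -5.62, and the 7 treated animals from -6.71 to -5.98 with a median of -6.55. Controls 17, 20, 21 and 22 lay above all 7 of these treated animals, and controls 18, 23 and 24 lay among them. The difference was -0.54 ± 0.19 (SE), with an interval of -0.96 to -0.13 and an adjusted p of 0.98 in limma (unadjusted 0.013). With prednisolone 30, at -2.41 and not well above background, it was -0.04 ± 0.52 (SE). Of the 4 high controls, controls 20 and 22 shared slide 6, and control 21 lay on slide 5, and these slides held no treated animal, but slide 5 also held control 24, which was low. Within scan day 1 without prednisolone 30, with 3 controls and 5 treated animals, the group means were -6.12 and -6.39, a difference of -0.26. With that animal kept and scan day as a block, the difference was 0.40.

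CD2, an adhesion receptor of T cells and natural killer cells, was the steadiest gene. It spanned 0.92 on the log2 scale over the 14 animals, from -3.43 to -2.90 in controls and from -3.46 to -2.55 in treated animals. Its difference was 0.32 ± 0.30 (SE) with prednisolone 30 and 0.07 ± 0.16 without. CD27, a costimulatory receptor of the tumour necrosis factor receptor family, differed by 0.95 ± 0.67 (SE) over all arrays. Prednisolone 30 set most of that value: it lay at -1.36 without being well above background, while the other 14 animals lay between -7.60 and -6.07, and the difference without it was 0.30 ± 0.24.

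CD28 and CTLA4 compete for the same ligands on antigen-presenting cells, CD28 as an activating and CTLA4 as an inhibiting receptor. CTLA4 ranged from -3.49 to -0.94 in controls, with a median of -1.87, and from -2.04 to -1.54 in the 7 treated animals, with a median of -1.67. The controls thus held both the highest and the lowest of the 14 animals, controls 23 and 17, and all 7 treated animals lay between them. The difference was 0.17 ± 0.32 (SE), or 0.35 ± 0.27 without prednisolone 30. Of the 14 animals, control 17 was also the lowest for CD28, at -3.25. CD28 ranged up to -1.68 in controls and from -2.86 to -1.66 in the 7 treated animals other than prednisolone 30. Its difference was -0.11 ± 0.29 (SE), or 0.04 ± 0.25 without prednisolone 30, and its second probe did not rank the animals like the first (rho 0.02).

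All 4 tested B cell genes had higher values in treated animals, with a median difference of 0.33, or 0.28 without prednisolone 30, but MS4A1 and POU2AF1 turned below 0 after quantile normalization (-0.022 and -0.0020). MS4A1 was also below 0 within scan day 1 without prednisolone 30 (-0.12) and with a block for slide (-0.28) or scan day (-0.13), and BLK with array weights (-0.075). Of the 4, 0 passed. CD79A, the signalling chain of the B cell receptor, was well above background on every array. It ranged from -1.88 to -0.82 in controls with a median of -1.01, and from -1.03 to -0.41 in treated animals without prednisolone 30 with a median of -0.94. Prednisolone 30 gave 0.05, the highest value. The difference was 0.47 ± 0.21 (SE), with an interval of 0.03 to 0.91 and an adjusted p of 0.883 in limma (unadjusted 0.039), and 0.35 ± 0.17 without prednisolone 30 (interval -0.01 to 0.72). The low controls were control 20, at -1.88, and control 22, at -1.71, the only arrays of slide 6 and scan day 4. The 5 other controls lay between -1.09 and -0.82. Within scan day 1 without prednisolone 30 the group means were -0.995 and -0.84, a difference of 0.16.

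MS4A1, which encodes the B cell surface protein CD20, spanned 2.51 on the log2 scale, mainly through control 21. That animal lay at -4.97, while the other controls ranged from -3.51 to -2.47 and the 7 treated animals from -3.96 to -2.50. The difference was 0.21 ± 0.32 (SE), or 0.21 ± 0.33 without prednisolone 30. A second probe of MS4A1 ranked the 14 animals similarly (rho 0.61). POU2AF1, a transcription coactivator of B cells, ranged from -5.67 in control 17 to -3.07 in control 23, and from -4.37 to -3.59 in the 7 treated animals. Its difference was 0.39 ± 0.33 (SE), or 0.36 ± 0.33 without prednisolone 30. BLK, a kinase of the B cell receptor path, ranged from -4.05 to -2.63 in controls. In the 7 treated animals other than prednisolone 30 it ranged from -4.20 to -2.64. Its difference was 0.26 ± 0.31 (SE), or 0.08 ± 0.26 without prednisolone 30.

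The cytotoxic genes had 2 of 5 higher values in treated animals, and 1 of 5 without prednisolone 30, where their median difference was -0.15. PRF1 encodes perforin, which opens pores in target cells. It ranged from -2.97 to -0.73 in controls with a median of -2.20, and from -2.96 to -1.20 in the 7 treated animals with a median of -2.47. Its difference was -0.45 ± 0.39 (SE), or -0.25 ± 0.35 without prednisolone 30. NKG7, a granule membrane protein of natural killer and cytotoxic T cells, ranged from -2.68 to -0.89 in controls and from -3.11 to -1.32 in the 7 treated animals. The groups overlapped throughout, and the difference was -0.01 ± 0.31 (SE), or -0.15 ± 0.28.

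Granzymes are the proteases that enter a target cell through perforin pores. GZMB was highest in control 17, at -4.14, and lowest in control 21, at -6.99, where it was not well above background. In the deposited table, which holds no GZMB value for controls 21 and 22, it differed by -0.77 (unadjusted p = 0.035 in limma, adjusted 0.846). In the scanner files it differed by -0.03 ± 0.48 (SE) and without prednisolone 30 by -0.38 ± 0.35. GZMK ranged from -7.28 to -6.14 in controls and from -7.95 to -5.73 in treated animals without prednisolone 30, and was not well above background on 4 arrays. Its difference was 0.31 ± 0.52 (SE), or -0.12 ± 0.30 without prednisolone 30. GZMA ranged from -6.47 to -5.19 in controls and from -6.82 to -5.26 in treated animals without prednisolone 30. Its difference was 0.26 ± 0.33 (SE), or 0.03 ± 0.25 without that animal. Other probes described as granzyme A or B did not follow these probes (rho -0.60 for GZMA, -0.07 and 0.27 for GZMB), so which gene each probe reads is uncertain.

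CCR7 guides naive lymphocytes to lymph nodes, and IL7R receives the survival signal interleukin 7. CCR7 ranged from -7.00 to -5.81 in controls and from -7.02 to -5.98 in the 7 treated animals other than prednisolone 30. It differed by 0.47 ± 0.45 (SE), or 0.06 ± 0.20 without prednisolone 30. Its second probe was well above background on 4 arrays only and is not read here. IL7R ranged from -4.51 in control 24 to -2.38 in control 23 and from -4.20 to -3.12 in the 7 treated animals, and differed by -0.10 ± 0.29 (SE), or -0.14 ± 0.29.

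Animals of the same group differed widely. Over the 14 animals other than prednisolone 30, the highest animal exceeded the lowest by 1.89-fold for CD2, 3.72-fold for CD3E, 4.27-fold for CD8B, 4.72-fold for PRF1 and 6.07-fold for CD8A, each well above background on all 14 arrays. For 8 genes, CD3E, CD3G, CD8A, CD8B, LCK, ZAP70, PRF1 and NKG7, the 3 highest animals were the same: control 17, control 24 and prednisolone 27. For CD8A these animals lay at -1.48, -1.78 and -2.13, and the other 11 between -4.08 and -2.60. For CD8B they lay at -0.996, -1.36 and -1.58, against -3.09 to -1.90, and for NKG7 at -0.89, -1.52 and -1.32, against -3.11 to -1.89. Both groups are represented, and the 3 arrays came from slides 1, 5 and 7 and scan days 1, 3 and 5.

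**Figure D2:**
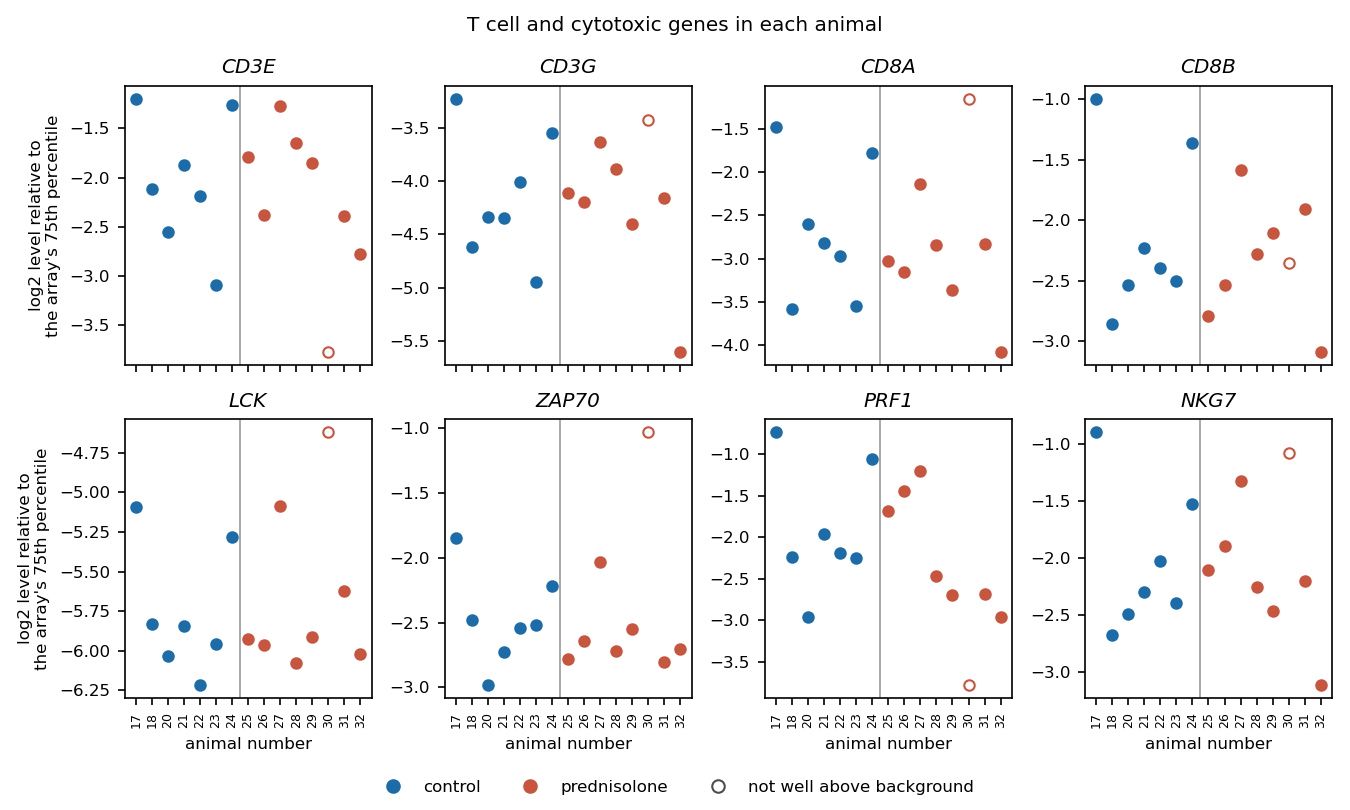
Log2 level of 8 T cell and cytotoxic genes in each animal, relative to the array's 75th percentile (vertical axes differ by gene). Blue points are controls and red points prednisolone animals, each 1 array, and open points were not well above background. Controls 17 and 24 and prednisolone 27 are the 3 highest in every panel once prednisolone 30, with open points throughout, is set aside.

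These animals were singled out after their values were seen, so the counts are descriptions. The 8 genes are 34.8% of the 23 tested, and for 747 of all 13267 tested genes, or 5.63%, the same 3 animals were highest. In the deposited table it was 7 of 23 genes, CD3G being the one that dropped out, against 5.55% of all genes. By role, the count was 4 of 5 genes of the receptor complex and coreceptors, 2 of 2 kinases and 2 of 5 cytotoxic genes. It was 0 of 5 adhesion and costimulation genes, 0 of 4 B cell genes and 0 of 2 for CCR7 and IL7R. Control 17, highest of the 14 animals for 8 of the 23 genes, was at the same time the lowest for 3: CD28, CTLA4 and POU2AF1. At the other end, prednisolone 32 was lowest for 6 genes, CD3G, CD8A, CD8B, CD2, GZMK and NKG7, or 26.1% of the 23 against 4.79% of all tested genes.

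**Figure D3:**
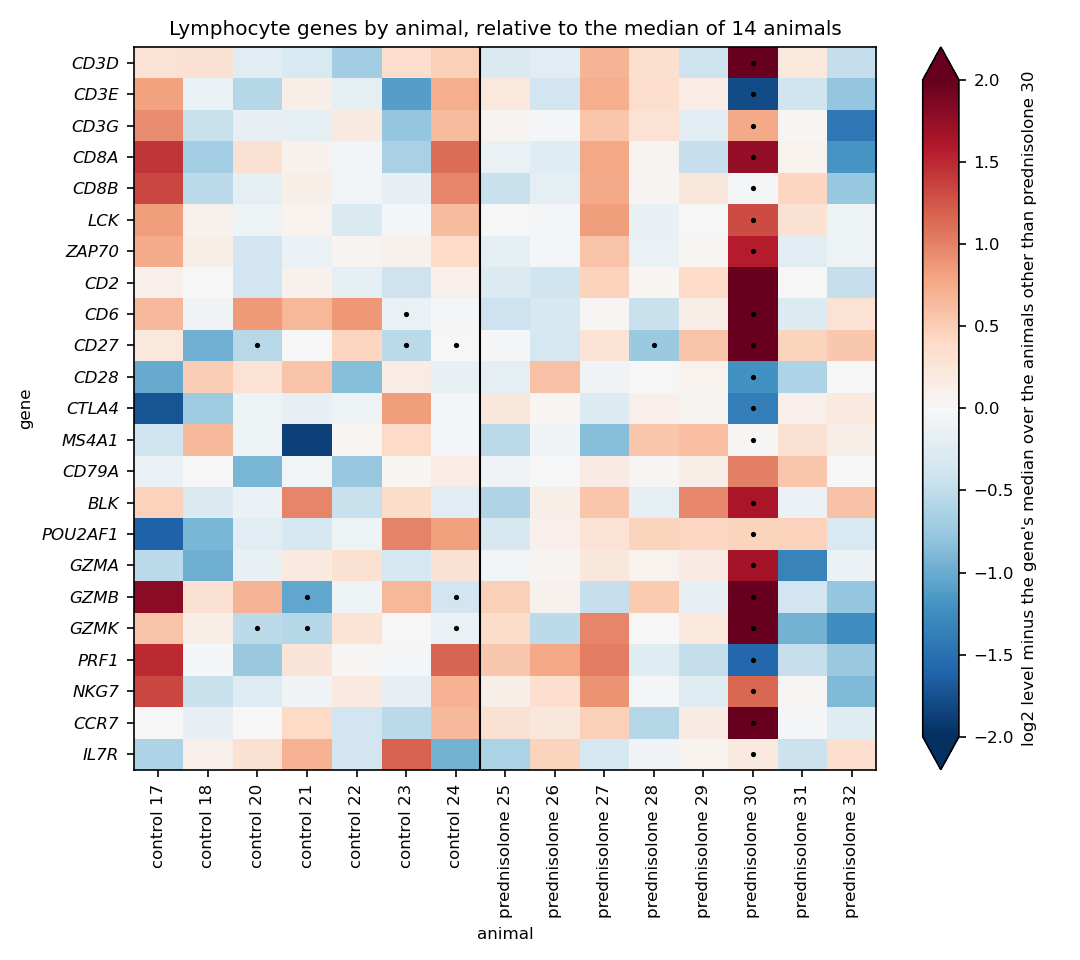
Log2 level of the 23 tested lymphocyte genes (rows) in each of 15 animals (columns), minus the gene's median over the 14 animals other than prednisolone 30, with colours cut at 2 and -2. Black dots mark values not well above background, and the line separates controls from treated animals. The red blocks of control 17, control 24 and prednisolone 27 lie in the T cell and cytotoxic rows, and control 17 is blue for CD28, CTLA4 and POU2AF1.

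Marker lists of other cell types also varied between animals, and control 17 stood highest of the 14 animals for macrophage and endothelial genes. Given as the mean log2 deviation of a marker list from its median animal, the 13 macrophage genes, all detected, stood at 0.83 in control 17, 0.35 in control 24 and 0.17 in prednisolone 27. Controls ranged from -0.19 to 0.83 and treated animals without prednisolone 30 from -0.17 to 0.30, with prednisolone 31 highest. Of the 13 genes, 5 had the same 3 highest animals, or 38.5% against 5.63% of all tested genes: CD68, CD163, C1QA, C1QB and C1QC. Others went the other way, as CD14 and AIF1 were lowest of the 14 animals in control 17. Endothelial genes, 6 of 6 detected, stood at 0.95 in control 17, 0.38 in prednisolone 27 and -0.10 in control 24. They lay between -0.26 and 0.95 over the controls and -0.08 and 0.38 over the treated animals without prednisolone 30. PECAM1, CDH5, TEK, KDR and CLDN5 were highest of the 14 animals in control 17. VWF was not, at -1.11 there, between -1.77 in control 20 and -0.03 in prednisolone 29. Spermatid genes were lowest in control 17, at -0.84, against -0.31 to 0.38 in the other animals. Lymph node stroma and germinal centre genes, 4 of 5 detected, were highest in control 17 and control 24, at 0.90 and 0.50, with CXCL13 well above background on 3 arrays only. In prednisolone 27 the Leydig list stood at 0.79 and in prednisolone 32 at -1.21, the highest and lowest of all animals. So did STAR, CYP11A1 and CYP17A1 of that list. Its gene INSL3 did not, at 6.83 and 7.01 in these animals, inside the range of the others. Of 8 epididymis genes, 2 had a probe, and CRISP1 was well above background on 1 array and AQP9 on 0. The part of these cell types in the lymphocyte values was not tested.

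Pairs of genes that belong to the same receptor, cell or granule were followed across animals. The pair CD79A and CD79B was not run because CD79B was too dim, which left 9 pairs. Over all 15 animals only CD8A and CD8B passed (Pearson r = 0.71, permutation p = 0.0027, adjusted 0.024; Spearman rho = 0.68, permutation p = 0.0067, adjusted 0.060). Without control 17 that pair no longer passed (r = 0.63, permutation p = 0.017, adjusted 0.091), nor after quantile normalization (r = 0.42, permutation p = 0.11, adjusted 0.13). Without prednisolone 30 they correlated at r = 0.89, with the smallest p that 100000 permutations can give (1e-05, adjusted 9e-05), and rho = 0.76 (permutation p = 0.0024, adjusted 0.0072). Leaving out control 17 and prednisolone 32 as well gave r = 0.79 over 12 animals. Within scan day 1 the value was 0.66 over 9 animals and 0.90 over the 8 without prednisolone 30 (permutation p = 0.011, adjusted 0.070).

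Without prednisolone 30, CD3E also followed CD3G (r = 0.83, permutation p = 0.00018, adjusted 0.00081; rho = 0.78, permutation p = 0.0015, adjusted 0.0068), CD2 (r = 0.77, permutation p = 0.0015, adjusted 0.0045; rho = 0.81, permutation p = 0.00073, adjusted 0.0066) and LCK (r = 0.68, permutation p = 0.0065, adjusted 0.015; rho = 0.54, permutation p = 0.049, adjusted 0.11). With that animal these values were 0.40, -0.28 and -0.003 and did not pass. With that animal kept and quantile normalization in place of the 75th percentile, the values were 0.84, -0.75 and 0.96, of which those for CD3G and LCK passed (permutation p = 4e-05 and 0.00046, adjusted 0.00036 and 0.0021). There rho was 0.83, 0.37 and 0.64 (adjusted permutation p 0.0035, 0.27 and 0.058), so LCK did not pass by rho. Neither CD3E nor LCK was well above background on prednisolone 30. Without that animal and control 23, r for LCK was 0.74 in that setting. In the deposited table, which holds another measurement for that animal, all 15 animals gave 0.80, 0.74 and 0.70. Leaving out control 17 beside prednisolone 30 gave 0.79, 0.78 and 0.60 over 13 animals, and CD3E with LCK no longer passed (permutation p = 0.029, adjusted 0.065). Leaving out controls 17 and 23, the farthest from the median of CD3E, gave 0.76, 0.75 and 0.64 over 12 animals. Within scan day 1 without prednisolone 30, over 8 animals, they were 0.82, 0.66 and 0.68, and none passed after adjustment (permutation p = 0.016, 0.079 and 0.091; adjusted 0.070, 0.21 and 0.21).

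The other pairs did not pass with the main scaling, with or without prednisolone 30. After quantile normalization with that animal kept, CD3D with CD3E, CD3D with CD3G and GZMA with PRF1 passed by Pearson r. Their adjusted permutation p was 0.038, 0.0496 and 0.0496. By Spearman rho they did not pass there (adjusted permutation p 0.27, 0.25 and 0.27). Without prednisolone 30, CD3E and the B cell gene CD79A correlated at r = 0.18 (permutation p = 0.54, adjusted 0.59; rho = 0.09, permutation p = 0.75), and within scan day 1 at -0.29 over 8 animals. CD3D correlated with CD3E at 0.39 and with CD3G at 0.42, although the 3 chains belong to the same complex. GZMA correlated with PRF1 at 0.22 and with NKG7 at 0.16. For these pairs the permutation p of r lay between 0.14 and 0.59.

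**Figure D4:**
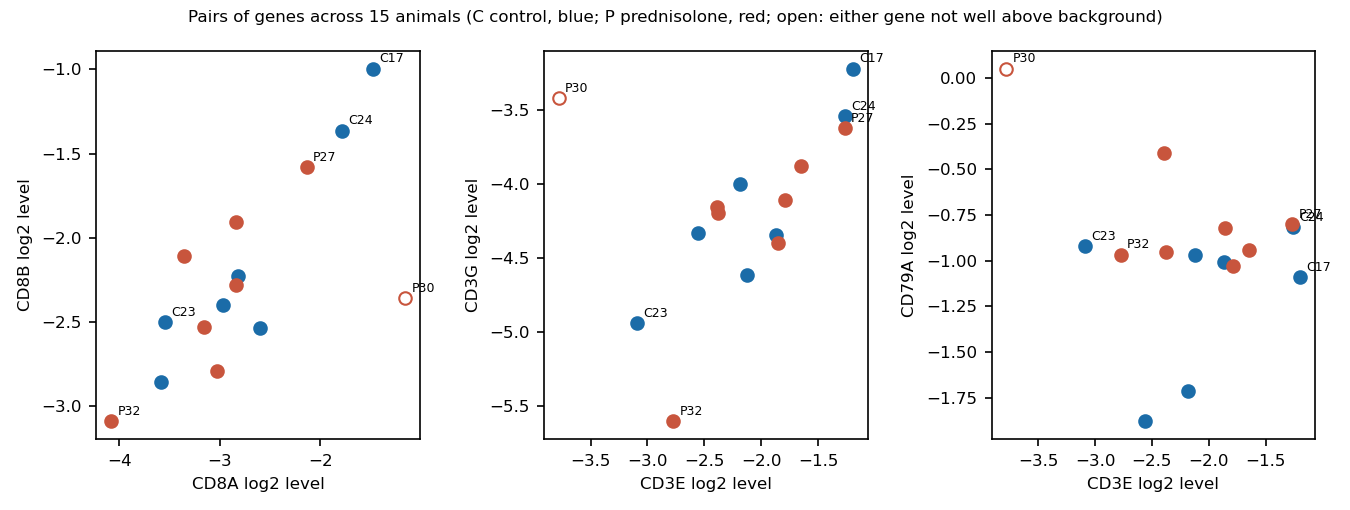
Log2 level of CD8B against CD8A, CD3G against CD3E and CD79A against CD3E, each relative to the array's 75th percentile, in 15 animals (blue controls, C; red prednisolone, P; open where either gene was not well above background). CD8A and CD8B rise together from prednisolone 32 to control 17 (r = 0.89 without prednisolone 30), CD3E and CD3G likewise (0.83), while CD79A shows no such order along CD3E (0.18), and prednisolone 30 lies off each cloud.

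Beyond the 28 genes, a list of 63 other lymphocyte genes was read, of which 55 had a probe and 45 were tested. Again 0 passed, where 0% of all genes were called, and 3, or 6.67%, had an unadjusted p under 0.05, against 2.43% of all tested genes. Without prednisolone 30 it was 4, or 8.89%, against 4.16%. Values were higher in 24 of 45, with a median difference of 0.03, and in 16 of 45 without prednisolone 30, with a median of -0.16. Among the genes nearest to the threshold with higher values were FASLG and CD7. FASLG, the death ligand of cytotoxic cells, ranged from -5.04 to -3.36 in controls with a median of -3.80. In the 7 treated animals other than prednisolone 30 it ranged from -3.58 to -2.83 with a median of -3.40. Its difference was 0.74 ± 0.24 (SE, adjusted p = 0.883 in limma, unadjusted 0.0062). It was 0.77 ± 0.24 without prednisolone 30, on whose array FASLG was not well above background, and 0.58 ± 0.21 without control 17. The lowest animal was control 17, which was the highest for PRF1 and NKG7. CD7, a surface protein of T cells and natural killer cells, differed by 0.35, and by 0.32 without prednisolone 30.

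With lower values, EBF1, a B cell transcription factor that stromal cells also use, differed by -0.52 ± 0.19 (SE, unadjusted p = 0.016), or -0.40 without prednisolone 30. CCL5, a chemokine of cytotoxic lymphocytes, ranged from 0.69 to 2.20 in controls. It ranged from -0.15 to 1.07 in the treated animals other than prednisolone 30, which lay at 1.60. Its difference was -0.56 ± 0.25 (SE), or -0.67 ± 0.22 without prednisolone 30, and both of these genes had an adjusted p of 0.883 in limma. PTPRC, the common leukocyte antigen CD45, differed by -0.27, or -0.23 without prednisolone 30. TCF7, a transcription factor of T cells, differed by -0.34, or -0.12 without that array, on which it was not well above background. Control 17 was the highest of the 14 animals for EBF1, CCL5, PTPRC and TCF7. Without control 17, and with prednisolone 30 kept, their differences were -0.43, -0.42, -0.12 and -0.27. The 3 animals highest for the T cell genes were the 3 highest for 10 of the 45 genes, or 22.2%, against 5.63% of all tested genes. Among them were KLRD1, KLRK1, CST7, CTSW, PDCD1, CD48, PTPRC, SLAMF6 and XCL1, several of which mark natural killer and cytotoxic cells. KLRD1, a natural killer cell receptor, lay at -4.62, -4.88 and -5.32 in controls 17 and 24 and prednisolone 27, and CTSW, a protease of cytotoxic cells, at 0.26, 0.23 and 0.16. In the deposited table the count was 4 of 45, or 8.89%, against 5.55% of all tested genes: CST7, CTSW, PDCD1 and PTPRC.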

How the data were processed

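Total RNA of each testis was hybridised to its own array, with 1 dye per the labels. The deposited scanner files give intensity values from Feature Extraction 9.5.1.1, per the file headers, with no normalization between arrays. A deposited table of linear intensity values covers the same arrays; the submitters' processing notes name R 2.11.1, and its normalization and probe centring are unknown. Log2 processed signal minus the array's 75th percentile was averaged over unmasked spots (42990 spots, 21475 probes). Tests covered the 18492 probes well above background on at least 7 of 15 arrays. Names came from gene numbers (9997 probes), accessions (3524), descriptions (2557), symbols (308) and synonyms (48) with RefSeq's ARS-UCD2.0 table; 5041 probes had none. Where several probes named a gene, the one with the highest mean stood for it. No coordinates are given, the build behind the array being unknown here.

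Differences came from limma 3.58.1, run in R 4.3.3 (two-sided, Benjamini-Hochberg over all tested probes, threshold 0.05); the fit was tested on simulated data. Pairs used two-sided permutation tests (100000 resamples), adjusted over 9 pairs. The 28 members, the other lists and the tests were chosen with earlier results of these data known. Named genes were the 28 members, per direction the 4 other lymphocyte genes lowest in unadjusted p, and markers for the tissue label (some of these other genes are not reported here); genes named for their 3 highest animals were chosen after their values were seen. The number of arrays limits the precision, and the p-values from limma set a group difference against the spread between these animals. Both groups were present on slide 1, slide 2 and scan day 1 only. Alternatives covered scaling, background correction, the deposited table, the filter, several probes per gene, slide, scan day, array weights, and leaving out control 17 and prednisolone 30.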

Additional observations from a re-analysis of the deposited data

Results flagged for a closer look

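Among 54 groups of values (27 genes in each group of animals), 14 held an animal far from the others by Dixon's ratio, where chance gives about 2.7, and 12 of these were prednisolone 30. For 11 of the 12 the probe was not well above background on that array. The log2 levels of prednisolone 30 were -3.44 for CD3D, -3.22 for CD4, -1.03 for ZAP70, -0.83 for CD5, -2.41 for CD6, -1.36 for CD27, -3.15 for CTLA4, -4.38 for CD79B, -3.30 for GZMB, -3.07 for CCR7 and -1.46 for FOXP3. It lay at -0.99 for CD2, which was well above background. The nearest other treated animal lay at -2.55 for CD2, at -7.71 for CD5 and at -6.07 for CD27. Only for CTLA4 was the distant value the lowest of its group. The other 2 were well above background: CD3G in prednisolone 32, at -5.61 with its neighbour at -4.40, and MS4A1 in control 21, at -4.97 with its neighbour at -3.51.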

How the results depend on the processing

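Over all fits, 0 lymphocyte genes and 0 of all tested genes passed the threshold. The count with higher values in treated animals was 13 of 23 and moved to 6 with quantile normalization, 7 with array weights, 8 within slide 1 and 8 within scan day 1 without prednisolone 30. It was 19 with normexp, and 11 to 16 when control 17, prednisolone 30 or both were left out. Within scan day 1 without control 17 and prednisolone 30 it was 14. The median difference of 0.10 moved to -0.13 with quantile normalization, -0.33 within slide 1, 0.62 within slide 2 (1 control and 2 treated arrays, prednisolone 30 among them) and -0.23 within scan day 1 without prednisolone 30. Leaving out control 17 as well within scan day 1 gave a median difference of 0.06. The median of all probes was 0.04 with the main scaling, -0.07 with quantile normalization and 0.11 with normexp. The within-batch subsets, the deposited table without control 17, and for pairs those without control 17, were chosen after seeing the data. No paired analysis was possible because the groups share no animal numbers. Causes were not tested.

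Signs of single genes turned under several settings. With quantile normalization the differences were -0.14 for CD3D, -0.49 for LCK, -0.078 for CTLA4, -0.022 for MS4A1, -0.0020 for POU2AF1, -0.23 for GZMA and -0.032 for GZMK. With normexp they were 0.075 for CD3G, 0.018 for CD8A, 0.20 for CD6, 0.051 for CD28, 0.12 for GZMB and 0.16 for IL7R. In the deposited table they were -0.063 for CD3D, 0.013 for CD3E, -0.10 for LCK, -0.21 for ZAP70 and -0.17 for GZMK, and with the mean of all probes 0.17 for CD28. With scan day as a block they were -0.18 for CD3D, -0.050 for LCK, -0.14 for ZAP70, 0.40 for CD6, -0.13 for MS4A1 and -0.030 for GZMK. With slide as a block they were -0.15 for CD3D, 0.27 for CD3G, 0.18 for CD8A, -0.014 for LCK, -0.037 for ZAP70, 0.46 for CD6, -0.28 for MS4A1 and 0.12 for NKG7. With array weights they were -0.069 for CD3D, -0.060 for LCK, -0.092 for ZAP70, -0.10 for CD2, -0.075 for BLK, -0.080 for GZMA, 0.11 for GZMB and -0.13 for GZMK. Leaving out control 17, prednisolone 30 or both gave -0.052 to 0.24 for CD3D, -0.055 to 0.17 for CD3E, -0.14 to 0.12 for CD3G, -0.38 to 0.060 for CD8A, -0.050 to 0.21 for LCK, -0.13 to 0.17 for ZAP70, -0.26 to 0.042 for CD28, -0.068 to 0.35 for CTLA4, -0.029 to 0.20 for GZMA, -0.38 to 0.22 for GZMB, -0.12 to 0.41 for GZMK and -0.15 to 0.18 for NKG7.

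The same omissions gave a Pearson r of -0.36 to 0.39 for CD3D with CD3E, 0.29 to 0.83 for CD3E with CD3G, 0.63 to 0.89 for CD8A with CD8B, -0.31 to 0.78 for CD3E with CD2, -0.16 to 0.68 for CD3E with LCK, -0.27 to 0.22 for CD3E with CD79A and -0.18 to 0.40 for GZMA with PRF1. Without control 17 alone, CD8A with CD8B no longer passed (0.63), and of the pairs that passed without prednisolone 30, CD3E with LCK no longer did without both (0.60). Quantile normalization gave 0.54 for CD3D with CD3E, 0.56 for CD3D with CD3G, 0.84 for CD3E with CD3G, 0.96 for CD3E with LCK and 0.70 for GZMA with PRF1. These passed by r, and of them only CD3E with CD3G also passed by rho. It gave 0.42 for CD8A with CD8B, which no longer passed. The values that did not pass there either were -0.75 for CD3E with CD2, -0.63 for CD3E with CD79A and -0.34 for GZMA with NKG7. The deposited table gave 0.32 for CD3D with CD3E, 0.80 for CD3E with CD3G, 0.74 for CD3E with CD2, 0.70 for CD3E with LCK and 0.20 for CD3E with CD79A. Within scan day 1, CD8A with CD8B was 0.66 and did not pass. Without prednisolone 30 there, CD8A with CD8B was 0.90 and did not pass, CD3D with CD3E was 0.0067, CD3E with CD2 0.66, CD3E with LCK 0.68, GZMA with PRF1 0.11 and GZMA with NKG7 -0.056.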
